A study of Mus musculus with 9 samples.

Results

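The 10 genes described here encode the receptor for leukaemia inhibitory factor (LIF), the kinases and the transcription factor that act below it, and the PIM kinases. They are Lifr, Il6st, Jak1, Jak2, Stat3, Socs3, Gbx2, Pim1, Pim2 and Pim3. They were taken by symbol from a table of raw read counts that held 38293 genes, and all 10 were found in it and passed the filter on low counts in each of the 3 comparisons. RNA was measured by poly-A RNA-seq in the mouse embryonic stem cell line E14 (strain 129/Ola), with 3 libraries in each of 3 culture states. The naive state, mESC-2i, was kept in N2B27 medium with 10 ng/mL LIF, 1 μM of the MEK inhibitor PD0325901 and 3 μM of the GSK3 inhibitor CHIR99021. The state called primed in the labels, mESC-ser, was kept on gelatin in DMEM with 15% foetal bovine serum and 10 ng/mL LIF. EpiLC (epiblast-like cells) were made from mESC-2i on fibronectin in N2B27 medium with 20 ng/mL activin A, 12 ng/mL bFGF and 1% KSR. LIF is not among the listed parts of the EpiLC medium, and the labels give no length of time for that step. All libraries came from 1 cell line, and the labels call them biological replicates without saying whether they were separate cultures, so the p-values measure the spread between these libraries only.

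LIF binds a surface complex of LIFR and the shared signalling chain GP130, which is encoded by Il6st. JAK kinases held at the inner side of these chains phosphorylate STAT3, which then enters the nucleus and switches on genes that keep mouse embryonic stem cells undifferentiated. Among its described targets are Socs3, whose protein shuts the receptor down again, Gbx2, a homeobox transcription factor, and the PIM genes, which encode serine/threonine kinases that favour growth and survival.

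The libraries held between 7187576 and 16829549 counts. The labelled states were checked against markers. Levels are given as CPM, counts relative to the library total after scaling. In the order mESC-2i, mESC-ser and EpiLC, 6 naive genes summed to 1901 to 2004, 1299.9 to 1328 and 95.5 to 106 CPM. Among them Nanog, Esrrb, Prdm14 and Tbx3 were called lower in mESC-ser than in mESC-2i. Nr0b1 was called higher there (means of 106 CPM in mESC-ser and 52.8 CPM in mESC-2i). The 5 formative or primed genes summed to 77.3 to 87.7, 605 to 723 and 1694 to 1757 CPM. General pluripotency genes, 5 in all, summed to 1499 to 1889, 2560 to 2759 and 2498 to 2691 CPM. From mESC-2i to EpiLC Sox2 of that list fell from 473 to 61.7 CPM, and Utf1 rose from 28.2 to 900 CPM. Of the 3 sets of markers of other cell types, the 7 of primitive endoderm summed to 20.7 to 24.5, 32.8 to 34.9 and 7.66 to 10.5 CPM, with Sox7 and Pdgfra at 3 counts or fewer in every EpiLC library. The 6 trophectoderm markers summed to 67.5 to 88.8, 204 to 227 and 81.3 to 84.1 CPM, with Elf5 at 3 counts or fewer in every library. Krt8 and Krt18 carried most of the mESC-ser sum. Cdx2 and Eomes were lower in mESC-ser (means of 2.42 and 8.57 CPM) than in mESC-2i (15.6 and 15.8 CPM). Gata3 went the other way, with means of 5.22 CPM in mESC-ser and 1.32 CPM in mESC-2i. The 7 fibroblast markers summed to 44.6 to 52.2, 58.0 to 78.0 and 40.9 to 45.5 CPM, with Lum at 3 counts or fewer in every library. Within that sum Thy1 and Dcn rose from mESC-2i to EpiLC (means of 3.08 to 29.5 and 0.475 to 8.50 CPM). Col1a1, Col1a2 and Col3a1 fell (22.8 to 1.48, 8.76 to 2.94 and 12.1 to 0.182 CPM). The part of such cells in the results below was not tested, and in bulk RNA fewer cells that express a gene and less RNA per cell cannot be told apart. Of the markers named here, Tbx3, Pdgfra, Krt8, Eomes, Gata3 and Col3a1 overlap other genes.

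The comparison of mESC-ser with mESC-2i called a minority of the members. In it 3 of the 10 genes rose in mESC-ser, namely Pim2 (6.04-fold), Gbx2 (1.82-fold) and Lifr (1.60-fold), and none was called lower. Calls needed both an adjusted p below 0.05 in edgeR's quasi-likelihood test and a log2 fold change beyond 0.5 in size. Over all 15728 genes tested in this comparison 56.2% passed, 25.9% upwards and 30.3% downwards, so the share of members called was below that of all genes. With the adjusted p alone, 6 of the 10 members passed, 5 higher and 1 lower. Only Pim2 passed at an absolute log2 fold change over 1. The CPM ranges of both groups were apart in 7 members and in 70.6% of all tested genes.

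EpiLC differed from both stem cell states in all 10 genes. 9 fell, by 2.76-fold (Jak1) to 34.6-fold (Socs3) against mESC-2i and by 3.28-fold (Jak1) to 28.6-fold (Socs3) against mESC-ser, and Pim2 rose. Against mESC-2i the calls took in 69.8% of 15378 genes, 32.0% upwards and 37.8% downwards, and the groups were apart in all 10 members and in 81.8% of genes. Against mESC-ser they took in 73.3% of 15345 genes, 35.5% upwards and 37.8% downwards, with the groups apart in all 10 members and in 85.7% of genes. The median log2 fold change of the members was -2.68 against mESC-2i and -2.86 against mESC-ser, where the medians of all tested genes were -0.11 and -0.068. The members were chosen with earlier results of these data known, so this contrast is a description. Both comparisons use the same EpiLC libraries, so they are not independent of each other. The EpiLC medium differs from the stem cell media in LIF together with the inhibitors or serum, activin A, bFGF and KSR. The parts of these and of the cell state cannot be told apart.

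**Figure D1:**
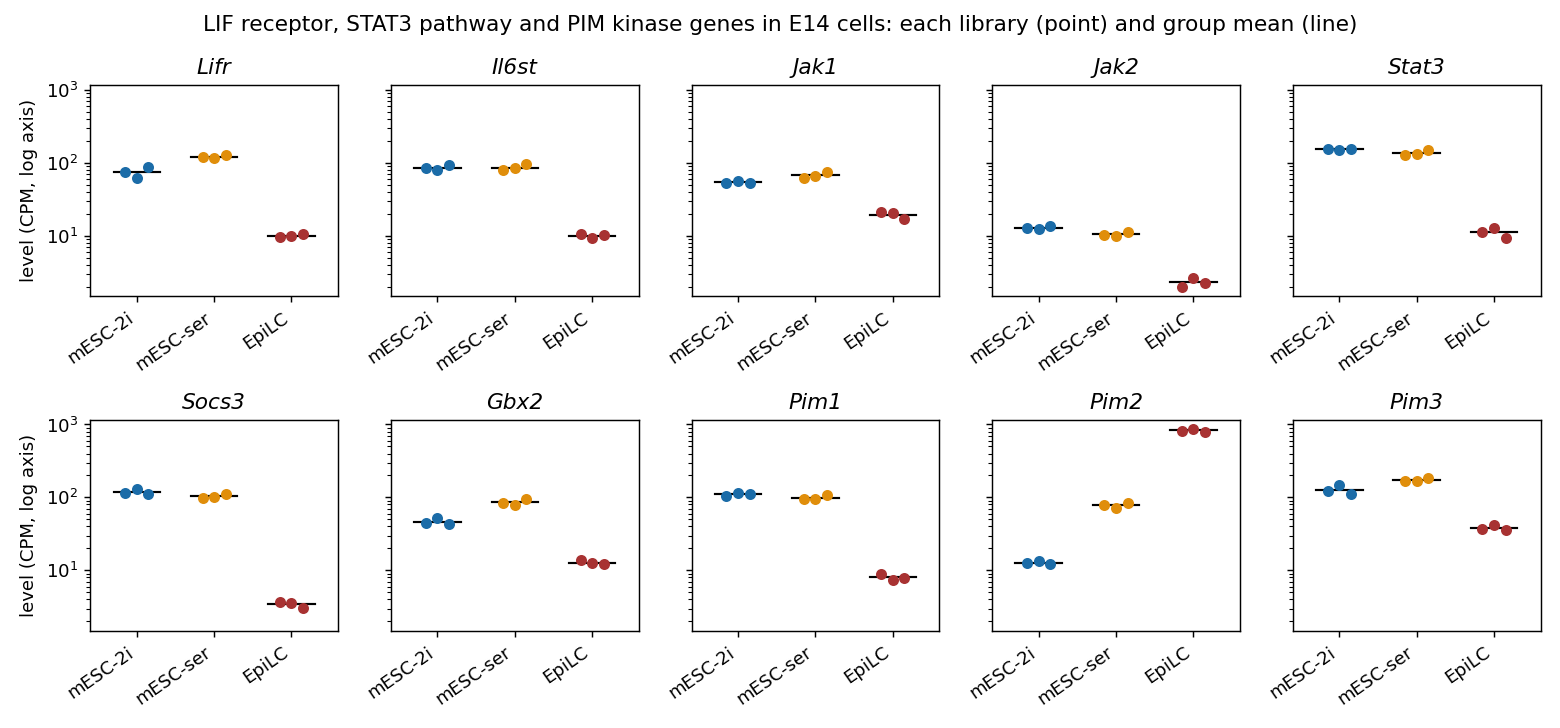
Level of each of the 10 genes in every library (points; CPM on a log axis) with the mean of the 3 libraries of a group (line) for mESC-2i, mESC-ser and EpiLC. Of the 10 genes, 9 are lowest in EpiLC, and Pim2 rises from mean levels of 12.8 CPM (mESC-2i) and 78.4 CPM (mESC-ser) to 827 CPM (EpiLC).

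**Figure D2:**
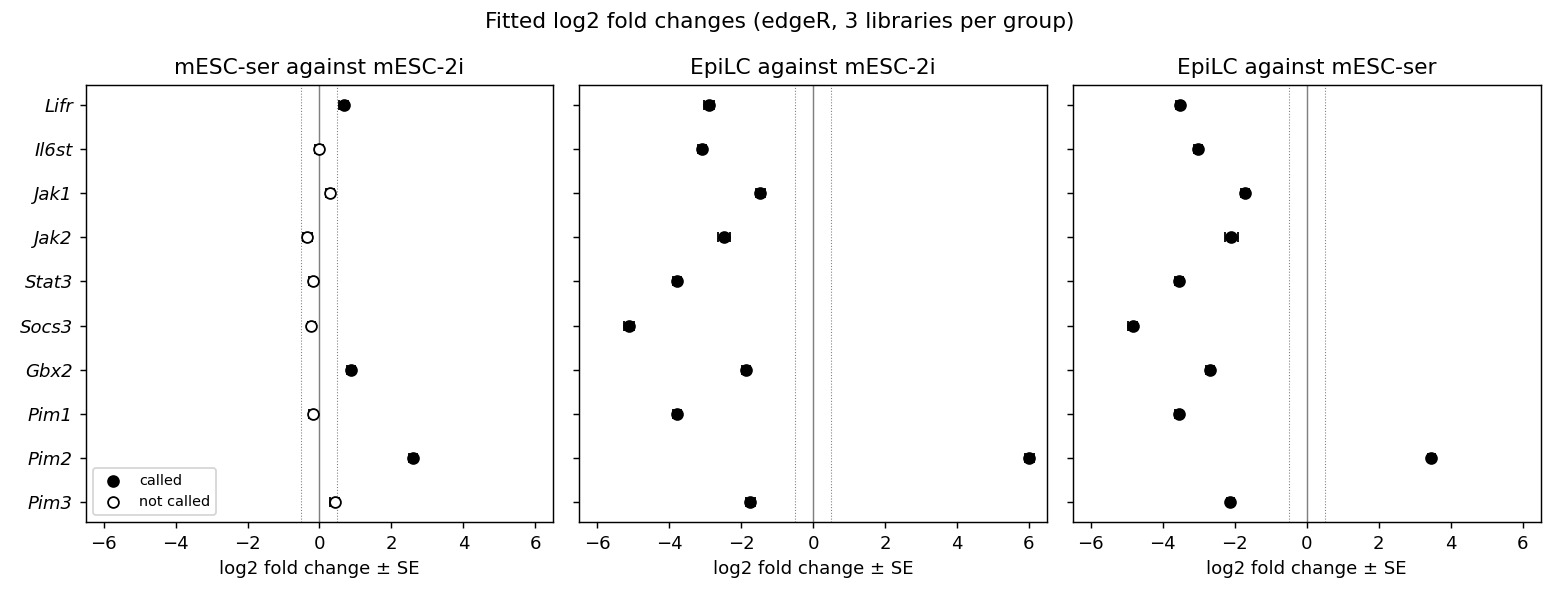
Fitted log2 fold changes of the 10 genes with their standard errors in the 3 comparisons, from edgeR with 3 libraries per group. Filled points were called, open points were not, and dotted lines mark log2 fold changes of -0.5 and 0.5. Between mESC-ser and mESC-2i 3 points are filled, and in both comparisons with EpiLC all 10 are.

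Both chains of the LIF receptor were far lower in EpiLC. Between the stem cell states Lifr was called and Il6st was not, and with offsets for length and GC content neither was. Lifr (ENSMUSG00000054263; mm10 chromosome 15, 7090614 to 7197489, plus strand) encodes the chain that LIF binds first. It stood at 73.7, 61.9 and 86.6 CPM in replicates 1, 2 and 3 of mESC-2i, with mESC-ser at 118, 116 and 128 CPM and EpiLC at 9.46, 9.94 and 10.5 CPM. The 3 groups did not overlap, and mESC-ser was the highest. On the log2 scale Lifr rose by 0.68 in mESC-ser (SE 0.13, edgeR adjusted p = 0.000863). It fell in EpiLC by 2.89 on the log2 scale against mESC-2i (SE 0.15, edgeR adjusted p = 4.37e-08) and by 3.52 against mESC-ser (SE 0.10, edgeR adjusted p = 3.06e-14). Its exonic length of 10776 bp is among the longest of the members. With offsets for length and GC content the rise in mESC-ser was 0.20 (SE 0.076), short of the threshold on the fold, and the falls in EpiLC were 2.12 and 2.31.

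Il6st (ENSMUSG00000021756; chromosome 13, 112464070 to 112510086, plus strand), whose product GP130 is shared by the receptors of the interleukin-6 family, was not called between the stem cell states. The mESC-2i libraries had 84.4, 79.7 and 91.7 CPM, those of mESC-ser 78.1, 84.3 and 95.0 CPM and those of EpiLC 10.5, 9.28 and 10.3 CPM. The stem cell groups overlapped (log2 fold change -0.017, SE 0.11, edgeR adjusted p = 0.898), and every EpiLC library lay below both. The falls in EpiLC were 3.09 on the log2 scale against mESC-2i (SE 0.11, edgeR adjusted p = 5.54e-09) and 3.03 against mESC-ser (SE 0.11, edgeR adjusted p = 2.69e-13). With the offsets for length and GC content, the falls of this gene with 11099 bp of exon were 2.25 and 1.82. Between the stem cell states the offsets moved its log2 fold change to -0.44 (SE 0.077, edgeR adjusted p = 0.000657), which passes on the adjusted p but not on the fold.

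The balance of the receptor chains was taken within each library, which needs no scaling between libraries. Per exonic length, Lifr stood at 0.888 of Il6st in mESC-2i (mean log2 ratio -0.17 ± 0.14, SD, n = 3), at 1.45 in mESC-ser (0.54 ± 0.087) and at 1.03 in EpiLC (0.036 ± 0.13). All 3 mESC-ser libraries lay above all others. The range of the group means was 0.71 on the log2 scale (exact permutation test over 1680 assignments of the 9 libraries, p = 0.00714, Benjamini-Hochberg adjusted p = 0.00893 over 5 ratios). The smallest p this test can give is 0.00357, and 3 libraries against 3 cannot go below 0.1, so pairs of groups were not tested on ratios.

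Jak1 and Jak2, the tyrosine kinases that bind these receptor chains, also fell in EpiLC, Jak2 from a much lower level. Jak1 (ENSMUSG00000028530; chromosome 4, 101152367 to 101265282, minus strand) stood at 51.9, 56.7 and 52.1 CPM in mESC-2i, while mESC-ser had 60.9, 65.6 and 74.5 CPM and EpiLC 21.3, 20.2 and 16.8 CPM. No group overlapped another. The difference of mESC-ser from mESC-2i was 0.30 on the log2 scale (SE 0.11, edgeR adjusted p = 0.0295), which passes on the adjusted p but not on the fold. With offsets for length and GC content it was 0.11 (SE 0.10, edgeR adjusted p = 0.359). Jak1 fell in EpiLC by 1.46 (SE 0.12, edgeR adjusted p = 9.73e-07) and 1.71 (SE 0.11, edgeR adjusted p = 2.03e-10) against mESC-2i and mESC-ser, the smallest falls among the members. With the offsets the log2 fold changes were -0.80 and -0.93. Jak1 overlaps Raver2 on the opposite strand by 4 bp of exon, and Raver2 stood at 31.4 CPM in EpiLC and at 17.6 and 16.2 CPM in the stem cell states.

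Jak2 (ENSMUSG00000024789; chromosome 19, 29251828 to 29313080, plus strand) stood at 12.9, 12.3 and 13.5 CPM in mESC-2i, with mESC-ser at 10.1, 9.74 and 11.2 CPM and EpiLC at 2.00, 2.62 and 2.26 CPM. The EpiLC values rest on 15, 24 and 18 counts, so its level there is less precise than that of the other members. The 3 groups did not overlap, in the order mESC-2i, mESC-ser and EpiLC from high to low. The log2 fold change in mESC-ser was -0.34 (SE 0.13, edgeR adjusted p = 0.0406), short of the fold threshold. In EpiLC Jak2 fell by 2.48 (SE 0.18, edgeR adjusted p = 4.64e-07) and 2.09 (SE 0.18, edgeR adjusted p = 1.19e-08) on the log2 scale.

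Within libraries the ratio of Jak2 to Jak1 per exonic length was 0.347 in mESC-2i (log2 -1.53 ± 0.14, SD, n = 3), 0.223 in mESC-ser (-2.16 ± 0.089) and 0.173 in EpiLC (-2.53 ± 0.28). The mESC-2i libraries lay above all others, and no group overlapped another. The range of the group means was 1.00 on the log2 scale (exact permutation test, p = 0.00357, adjusted p = 0.00595 over 5 ratios). The other kinases of the family, Jak3 and Tyk2, changed the picture of the whole. The 4 JAK genes summed to 40.6 ± 7.75 RPKM (CPM per kilobase of exon; SD, n = 3) in mESC-2i, 23.0 ± 2.76 RPKM in mESC-ser and 7.53 ± 0.453 RPKM in EpiLC. Jak1 and Jak2 held 18.7% and 6.42% of that sum in mESC-2i, with 40.3% and 8.98% in mESC-ser and 35.6% and 6.07% for EpiLC. In mESC-2i the largest share was that of Jak3, which overlaps Insl3 on the same strand, at 50.6%, 48.8% and 61.0% in replicates 1, 2 and 3.

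Stat3 (ENSMUSG00000004040; chromosome 11, 100885098 to 100939540, minus strand), the transcription factor at the end of the pathway, stood at 154, 150 and 155 CPM in mESC-2i, while mESC-ser had 126, 133 and 151 CPM and EpiLC 11.3, 12.7 and 9.29 CPM. The stem cell groups overlapped, and the EpiLC libraries were far below both. The log2 fold change in mESC-ser was -0.19 (SE 0.098, edgeR adjusted p = 0.113), and -0.34 with offsets for length and GC content (SE 0.085, edgeR adjusted p = 0.00589), short of the fold threshold. In EpiLC Stat3 fell, with log2 fold changes of -3.78 against mESC-2i (SE 0.12, edgeR adjusted p = 2.37e-09) and -3.54 against mESC-ser (SE 0.12, edgeR adjusted p = 1.13e-13). The offsets for length and GC content gave -2.97 and -2.64. Stat3 shares 72 bp of its 9527 bp of exon with Stat5a on the opposite strand.

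Socs3 (ENSMUSG00000053113; chromosome 11, 117966079 to 117970047, minus strand), which encodes the feedback inhibitor of the receptor complex, had the largest fall of the 10 genes in both comparisons with EpiLC. It stood at 116, 132 and 111 CPM in mESC-2i, with mESC-ser at 99.5, 103 and 110 CPM and EpiLC at 3.73, 3.60 and 3.01 CPM, the latter from 28, 33 and 24 counts. The groups did not overlap, although the highest mESC-ser library and the lowest mESC-2i library were close. The log2 fold change in mESC-ser was -0.23 (SE 0.10, edgeR adjusted p = 0.0661), and 0.022 with the offsets. In EpiLC Socs3 fell by 5.11 on the log2 scale against mESC-2i (SE 0.14, edgeR adjusted p = 8.26e-10) and by 4.84 against mESC-ser (SE 0.12, edgeR adjusted p = 1.01e-14). Of all tested genes 1.98% and 1.41% had a lower log2 fold change in these comparisons.

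The fitted fall of Socs3 in EpiLC was larger than that of Stat3. The ratio of Socs3 to Stat3 per exonic length was 2.58 in mESC-2i (log2 1.37 ± 0.15, SD, n = 3), 2.52 in mESC-ser (1.33 ± 0.064) and 1.04 in EpiLC (0.058 ± 0.12). The stem cell groups overlapped, and all 3 EpiLC libraries lay below them. The range of the group means was 1.31 on the log2 scale (exact permutation test, p = 0.0321, adjusted p = 0.0321 over 5 ratios). The adjusted p was between 0.0571 and 0.0857 in 5 of the 9 tests that left out 1 library, namely without replicate 1 or 2 of mESC-2i or any replicate of mESC-ser, where the range was 1.27 to 1.33. With libraries permuted only among those of the same replicate number the adjusted p was 0.111, so this ratio did not pass the test under a replicate block.

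The sequence before the Socs3 start is shown because it held the only match, among the member windows, to the letters of a STAT site, TTCNNNGAA, which reads the same on both strands. RefSeq windows (build GRCm38.p6, the assembly of mm10) of 250 bases before to 50 bases after a start were given for all 10 members, 12 windows in all. The match lies 154 bases before the RefSeq start, at chr11:117969512-117969520, and such a match stands in 8.30% of the 32851 windows of all genes. Capitals mark it in the 165 bases of the window that lie in no annotated exon (chr11:117969452-117969616, minus strand). GENCODE M21 also holds a Socs3 transcript that starts further upstream, at 117970047.
Socs3: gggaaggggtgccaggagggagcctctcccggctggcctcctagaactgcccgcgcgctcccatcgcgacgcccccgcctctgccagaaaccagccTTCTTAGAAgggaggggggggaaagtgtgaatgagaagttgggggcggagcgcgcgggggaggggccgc
A match of letters describes the sequence and does not show that STAT3 binds there. The member windows held 1 match in 12, close to the share over the windows of all genes.

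Gbx2 (ENSMUSG00000034486; chromosome 1, 89927956 to 89931179, minus strand), a homeobox factor described as a target of LIF and STAT3 in mouse embryonic stem cells, was highest in mESC-ser. It stood at 45.3, 51.5 and 43.1 CPM in mESC-2i, while mESC-ser had 84.5, 78.6 and 96.5 CPM and EpiLC 13.7, 12.4 and 12.2 CPM, with no overlap of groups. Gbx2 rose in mESC-ser by 0.87 on the log2 scale (SE 0.11, edgeR adjusted p = 7.46e-05), and by 1.18 with the offsets for length and GC content. It fell in EpiLC by 1.87 against mESC-2i (SE 0.12, edgeR adjusted p = 2.06e-07) and by 2.69 against mESC-ser (SE 0.11, edgeR adjusted p = 7.05e-13), the latter by 3.40 with the offsets. Of its 2177 bp of annotated exon 946 bp, or 43.5%, are shared with D130058E05Rik on the opposite strand. The library kit is not named as strand-specific and the strand setting of the counting was not given, so reads there cannot be told apart. D130058E05Rik itself had mean levels of 4.62 (mESC-2i), 2.77 (mESC-ser) and 3.11 CPM (EpiLC).

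The PIM genes moved apart. Pim1 and Pim3 fell in EpiLC, whereas Pim2 was higher in mESC-ser than in mESC-2i and higher in EpiLC than in both, against the direction of the other 9 members in EpiLC. The PIM kinases have overlapping substrates and are active as made, without the phosphorylation step that many other kinases need.

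Pim1 (ENSMUSG00000024014; chromosome 17, 29490753 to 29496112, plus strand), the member of the family best known as a STAT3 target, stood at 105, 116 and 111 CPM in mESC-2i, with mESC-ser at 96.3, 95.1 and 106 CPM and EpiLC at 8.92, 7.32 and 7.91 CPM. The stem cell groups overlapped (log2 fold change -0.18, SE 0.095, edgeR adjusted p = 0.111, or 0.11 with the offsets for length and GC content). EpiLC lay well below both, with log2 fold changes of -3.79 against mESC-2i (SE 0.11, edgeR adjusted p = 1.75e-09) and -3.56 against mESC-ser (SE 0.11, edgeR adjusted p = 5.69e-14). Pim1 shares 488 bp of its 3362 bp of exon with Gm26885 on the opposite strand, which was counted at 0.564 CPM or less on average in each group.

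Pim3 (ENSMUSG00000035828; chromosome 15, 88862186 to 88865726, plus strand) stood at 123, 148 and 111 CPM in mESC-2i, while mESC-ser had 167, 168 and 185 CPM and EpiLC 36.9, 41.6 and 35.5 CPM. No group overlapped another, and mESC-ser was the highest. The difference of mESC-ser from mESC-2i was 0.42 on the log2 scale (SE 0.12, edgeR adjusted p = 0.00898), short of the fold threshold. It was past that threshold without replicate 2 of mESC-2i (0.54) and with the offsets for length and GC content (0.66). Pim3 fell in EpiLC by 1.75 against mESC-2i (SE 0.12, edgeR adjusted p = 4.42e-07) and by 2.12 against mESC-ser (SE 0.089, edgeR adjusted p = 1.39e-12), and the second was 2.71 with the offsets.

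Pim2 (ENSMUSG00000031155; chromosome X, 7878262 to 7883432, plus strand) was the lowest PIM gene in mESC-2i and by far the highest in EpiLC. It stood at 12.5, 13.5 and 12.2 CPM in mESC-2i, with mESC-ser at 78.3, 72.2 and 84.9 CPM and EpiLC at 821, 859 and 801 CPM. The groups lay far apart compared with the spread inside each. Pim2 rose in mESC-ser by 2.59 on the log2 scale (SE 0.11, edgeR adjusted p = 4.81e-08) and in EpiLC by 6.02 against mESC-2i (SE 0.11, edgeR adjusted p = 4.15e-10), a 64.7-fold difference. Against mESC-ser it rose by 3.47 (SE 0.088, edgeR adjusted p = 1.22e-14). With the offsets for length and GC content these values were 2.99, 6.11 and 3.09. By log2 fold change Pim2 ranked 45 from the top among the 15378 genes tested in EpiLC against mESC-2i.

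Per exonic length the PIM genes summed to 90.0 ± 9.09 RPKM (SD, n = 3) in mESC-2i, 129 ± 7.94 RPKM in mESC-ser and 314 ± 11.8 RPKM in EpiLC. The sum was thus highest where Pim1 and Pim3 were lowest. In mESC-2i Pim3 held 58.2% ± 2.92 of it, Pim1 36.7% ± 2.71 and Pim2 5.08% ± 0.236. In mESC-ser the shares were 55.4% ± 0.692, 22.9% ± 0.0635 and 21.7% ± 0.728. In EpiLC Pim2 held 94.3% ± 0.159, Pim3 4.98% ± 0.231 and Pim1 0.764% ± 0.0933.

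**Figure D3:**
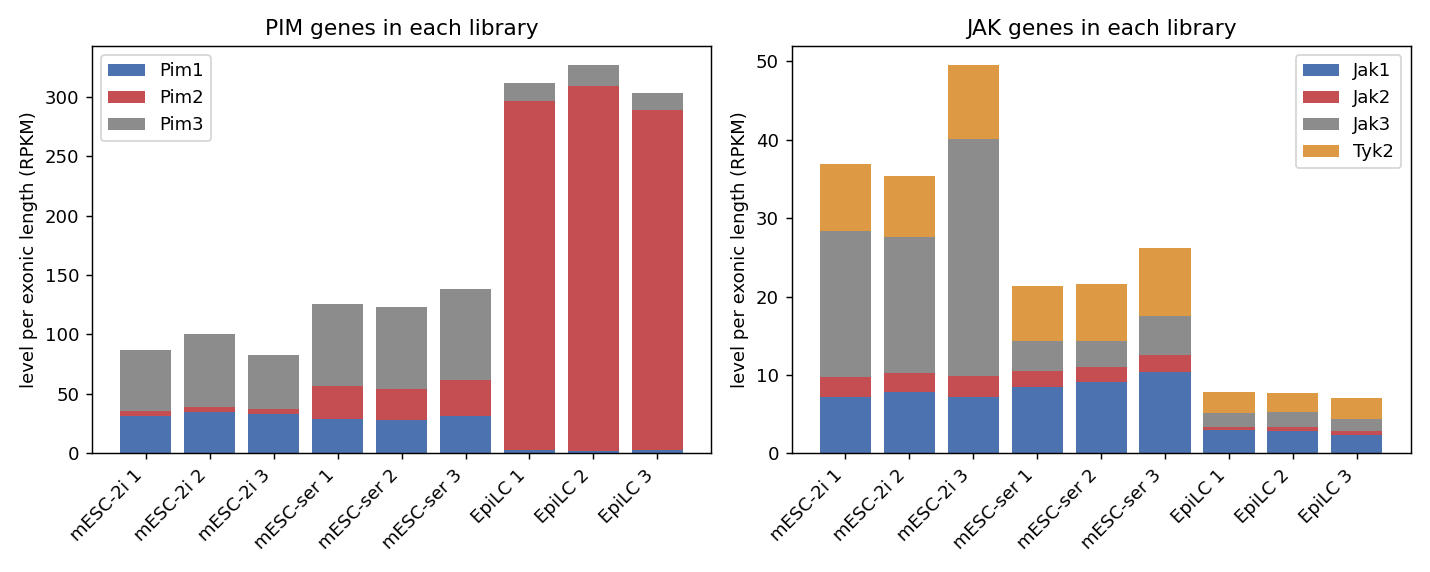
Level per exonic length (RPKM, linear axis from 0) of the PIM genes (left) and of the JAK genes (right) in each of the 9 libraries, stacked by gene. The PIM sum is between 304 and 327 RPKM in the EpiLC libraries, nearly all of it Pim2, and the JAK sum is highest in mESC-2i, where Jak3 holds 50.6%, 48.8% and 61.0% of it in replicates 1, 2 and 3.

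The ratios within libraries gave the same order without any scaling. Pim2 stood at 0.139 of Pim1 per exonic length in mESC-2i (log2 -2.85 ± 0.055, SD, n = 3), at 0.950 in mESC-ser (-0.074 ± 0.051) and at 123 times Pim1 in EpiLC (6.94 ± 0.18). The range of the group means was 9.79 on the log2 scale (exact permutation test, p = 0.00357, adjusted p = 0.00595 over 5 ratios). Pim3 stood at 1.59 times Pim1 in mESC-2i (0.67 ± 0.18), at 2.42 times in mESC-ser (1.28 ± 0.016) and at 6.51 times in EpiLC (2.70 ± 0.24), a range of 2.04 (exact permutation test, p = 0.00357, adjusted p = 0.00595). No group overlapped another in either ratio.

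Because Pim1, Pim2 and Pim3 differed so much, the sequences before their first exons are shown side by side. They are RefSeq promoter windows of GRCm38.p6 up to the base before the exon, all on the plus strand, at chr17:29490535-29490752 for Pim1 (the more upstream of its windows), chrX:7878056-7878261 for Pim2 and chr15:88861944-88862185 for Pim3. Capitals mark the octamer ATGCAAAT and its reverse complement ATTTGCAT, the letters bound by POU factors such as OCT4.
Pim1: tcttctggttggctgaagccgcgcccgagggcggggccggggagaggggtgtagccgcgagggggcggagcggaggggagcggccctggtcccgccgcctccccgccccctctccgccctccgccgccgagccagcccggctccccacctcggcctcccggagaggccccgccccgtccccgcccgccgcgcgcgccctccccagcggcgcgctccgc
Pim2: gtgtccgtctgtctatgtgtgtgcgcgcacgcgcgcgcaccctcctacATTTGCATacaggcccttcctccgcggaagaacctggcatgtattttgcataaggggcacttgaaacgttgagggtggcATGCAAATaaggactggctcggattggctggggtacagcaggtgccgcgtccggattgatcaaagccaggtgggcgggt
Pim3: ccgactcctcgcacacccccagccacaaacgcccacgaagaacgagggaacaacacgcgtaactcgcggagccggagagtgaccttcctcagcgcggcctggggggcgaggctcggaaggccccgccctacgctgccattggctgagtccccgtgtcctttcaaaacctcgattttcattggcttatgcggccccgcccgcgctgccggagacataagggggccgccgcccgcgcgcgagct
The Pim2 window held 2 octamers, which begin 202 and 123 bases before the RefSeq start, and none of the other 11 member windows held one. At least 1 octamer stood in 1.74% of the 32851 windows of all genes and at least 2 in 0.107%. The octamer was searched for after the Pim2 sequence had been seen, and a match does not show binding. Pou5f1, which encodes OCT4, had mean levels of 882 CPM (mESC-2i, with libraries from 682 to 1088 CPM), 781 CPM (mESC-ser) and 1006 CPM (EpiLC). Pou3f1, the gene of another POU factor, had 2.11 CPM (mESC-2i), 72.3 CPM (mESC-ser) and 292 CPM (EpiLC). Both overlap a gene on the opposite strand. Any part of either factor in the Pim2 levels was not tested. Pou3f1 comes from the list of formative or primed markers, and levels of other POU genes were not compared.

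Other genes of the pathway were examined in 6 lists with 52 genes. In mESC-ser against mESC-2i 47 were tested, of which 14 were higher and 18 lower, with a median log2 fold change of -0.19 where that of all tested genes was -0.043. In EpiLC against mESC-2i 10 of 48 were higher and 22 lower, with a median of -0.41 against -0.11. In EpiLC against mESC-ser 12 of 45 were higher and 29 lower, with a median of -0.73 against -0.068. Calls took in 56.2%, 69.8% and 73.3% of all genes tested in these comparisons, in the same order. Upwards the shares were 25.9%, 32.0% and 35.5%, and downwards 30.3%, 37.8% and 37.8%. The counts of each list below are to be read beside these shares. They are descriptions, since the lists were chosen with earlier results of these data known.

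**Figure D4:**
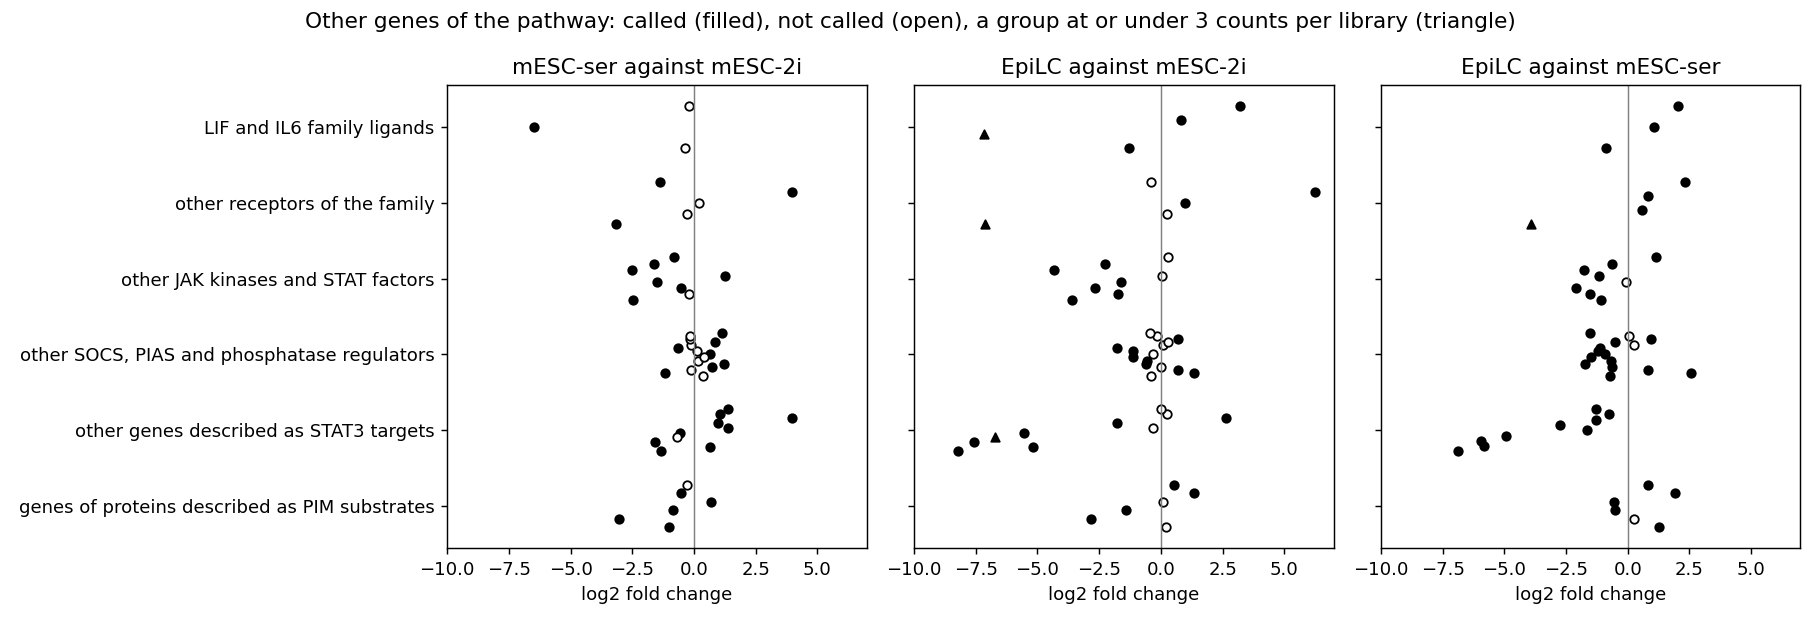
Fitted log2 fold changes of the tested genes of 6 pathway lists in the 3 comparisons; each point is a gene, filled where called. Triangles have a group with 3 counts or fewer in every library, so their size is not measured. The clearest shifts to the left are those of JAK kinases and STAT factors (6 of 8 lower in each comparison) and of STAT3 targets in EpiLC (6 of 10 lower against mESC-2i, 9 of 9 against mESC-ser). Of all tested genes 30.3% were called lower in mESC-ser against mESC-2i, and 37.8% in each comparison with EpiLC. The lists were chosen with earlier results of these data known.

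Ligands of the family went different ways. In mESC-ser against mESC-2i 1 of 3 tested ligands was lower, in EpiLC against mESC-2i 2 of 4 were higher and 2 lower, and in EpiLC against mESC-ser 2 of 3 were higher and 1 lower. Osm, the gene of oncostatin M, which also signals through GP130, stood at 25.9, 25.9 and 22.9 CPM in mESC-2i but had 6, 1 and 5 counts in the mESC-ser libraries and 3, 1 and 0 in EpiLC. It fell by 6.49 on the log2 scale in mESC-ser (SE 0.26, edgeR adjusted p = 3.22e-08) and was at least 67.6-fold lower in EpiLC than in mESC-2i. Lif itself was transcribed at 9.66 ± 1.01 CPM (SD, n = 3) in mESC-2i, did not pass the test in mESC-ser (7.63 ± 1.16 CPM) and fell to 3.96 ± 0.412 CPM in EpiLC, by 1.29 (SE 0.18) and 0.89 (SE 0.18) on the log2 scale. Clcf1, which encodes a ligand of the CNTF receptor, rose in EpiLC by 3.22 (SE 0.32) against mESC-2i and by 2.06 (SE 0.27) against mESC-ser, and Ctf1 (cardiotrophin 1) rose by 0.80 (SE 0.21) and 1.05 (SE 0.18). Clcf1 had only 3, 3 and 6 counts in mESC-2i and 14, 6 and 19 in mESC-ser, so its folds are imprecise. Clcf1 and Ctf1 overlap other genes. Il6 had 0 counts in all 9 libraries.

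Receptor genes also went different ways, and with 4 or 5 tested per comparison their counts say little beside the shares of all genes. In mESC-ser against mESC-2i 1 of 5 tested genes was higher and 2 were lower, in EpiLC against mESC-2i 2 of 5 were higher and 1 lower, and in EpiLC against mESC-ser 3 of 4 were higher and 1 lower. Il6ra, the chain that binds interleukin 6 and overlaps a gene on the opposite strand, stood at 18.7 ± 0.216 CPM in mESC-2i (SD, n = 3) and at 2.05 ± 0.671 CPM in mESC-ser, a fall of 3.18 on the log2 scale (SE 0.20). In EpiLC it had 0, 2 and 1 counts, at least 50.7-fold lower than in mESC-2i and at least 5.56-fold lower than in mESC-ser. Cntfr, the binding chain for CNTF, rose in EpiLC by 0.99 (SE 0.10) and 0.82 (SE 0.097) on the log2 scale. That receptor also uses the products of Lifr and Il6st, which fell in the same libraries. Il27ra fell by 1.37 in mESC-ser (SE 0.36), from 13, 14 and 24 counts in mESC-2i to 7, 5 and 15. Il11ra1 rose by 0.59 in EpiLC against mESC-ser (SE 0.23). Both overlap other genes.

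JAK kinases and STAT factors outside the members mostly fell, with 6 of 8 lower and 1 higher in mESC-ser, 6 lower and none higher in EpiLC against mESC-2i, and 6 lower and 1 higher in EpiLC against mESC-ser. Jak3, known from lymphoid cells, stood at 100.0, 92.4 and 162 CPM in mESC-2i, with replicate 3 above the others, at 20.5, 17.9 and 26.8 CPM in mESC-ser and at 9.86, 10.6 and 8.79 CPM in EpiLC. It fell by 2.47 on the log2 scale in mESC-ser (SE 0.22) and by 3.60 in EpiLC against mESC-2i (SE 0.22, edgeR adjusted p = 1.81e-07). Stat5a, the opposite-strand neighbour of Stat3, had log2 fold changes of -2.52 (SE 0.16) and -4.31 (SE 0.21) in these comparisons, and Stat5b one of -1.61 (SE 0.17) in mESC-ser. In EpiLC against mESC-ser Stat5a fell by 1.75 (SE 0.28) and Tyk2 by 1.51 (SE 0.11). The genes called higher were Stat4 in mESC-ser (1.24, SE 0.14) and Stat6 in EpiLC against mESC-ser (1.14, SE 0.090). Tyk2, Stat4 and Stat6 overlap other genes.

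Other negative regulators moved both ways, as tested genes at large did. Of 15 tested genes of SOCS, PIAS and phosphatase proteins 5 were higher and 2 lower in mESC-ser, 3 higher and 5 lower in EpiLC against mESC-2i, and 3 higher and 10 lower in EpiLC against mESC-ser. Socs1, an inhibitor of JAK kinases, stood at 7.03 ± 1.25 CPM in mESC-2i (SD, n = 3), with mESC-ser at 3.08 ± 0.494 and EpiLC at 17.7 ± 1.46 CPM. It fell by 1.18 in mESC-ser (SE 0.20) and rose in EpiLC by 1.35 against mESC-2i (SE 0.16) and by 2.57 against mESC-ser (SE 0.15, edgeR adjusted p = 9.02e-11). Socs2 rose to 112 ± 6.45 CPM in EpiLC from 70.4 ± 1.91 CPM in mESC-2i, by 0.67 on the log2 scale (SE 0.087). Socs5 rose 2.29-fold in mESC-ser and fell by 1.74 in EpiLC against mESC-ser (SE 0.18). Ptpn11, which encodes the phosphatase SHP2 that couples GP130 to ERK, rose by 1.13 in mESC-ser (SE 0.12) and fell by 1.51 in EpiLC against mESC-ser (SE 0.090). Pias3, the inhibitor named for STAT3, which overlaps another gene, fell by 1.79 in EpiLC against mESC-2i (SE 0.15). Socs7 fell by 1.14 (SE 0.13) in that comparison.

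Genes described as STAT3 targets moved both ways between the stem cell states and mostly fell in EpiLC. In mESC-ser 6 of 10 were higher and 3 lower, in EpiLC against mESC-2i 1 was higher and 6 lower, and in EpiLC against mESC-ser 9 of 9 were lower. Klf4 stood at 371 ± 18.1 CPM in mESC-2i (SD, n = 3), with mESC-ser at 150.35 ± 19.6 and EpiLC at 1.26 ± 0.605 CPM, and Tfcp2l1 at 863 ± 103, 293 ± 31.7 and 4.58 ± 0.901 CPM. Both are transcription factors of the naive state. In EpiLC against mESC-2i and mESC-ser Klf4 had log2 fold changes of -8.23 (SE 0.20) and -6.86 (SE 0.18), Tfcp2l1 of -7.55 (SE 0.17) and -5.92 (SE 0.13), and Klf5 of -5.20 (SE 0.16) and -5.80 (SE 0.13). Bcl3, a regulator of NF-kappaB, fell by 5.52 in EpiLC against mESC-2i (SE 0.13). Between the stem cell states Myc rose by 3.98 (SE 0.13), Tfcp2l1 fell by 1.58 (SE 0.13) and Junb rose by 1.37 (SE 0.12). Myc was the target called higher in EpiLC against mESC-2i (2.66, SE 0.12), yet it fell by 1.27 against mESC-ser (SE 0.084). The median of the list in EpiLC against mESC-2i was -3.49, or -1.84 with Pramel7, which had no counts in EpiLC, set at its bound. Sall4 of this list is also one of the pluripotency markers. Tfcp2l1, Bcl3, Junb and Sall4 overlap other genes.

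Genes of described PIM substrates were the last list. In mESC-ser 1 of 6 was higher and 4 were lower, in EpiLC against mESC-2i 2 were higher and 2 lower, and in EpiLC against mESC-ser 3 were higher and 2 lower. Cdkn1a, the gene of the cell-cycle inhibitor p21, stood at 343 ± 24.0 CPM in mESC-2i (SD, n = 3), with mESC-ser at 42.4 ± 0.616 and EpiLC at 48.3 ± 3.24 CPM. It fell by 3.04 in mESC-ser (SE 0.10) and by 2.83 in EpiLC against mESC-2i (SE 0.10, edgeR adjusted p = 4.9e-09). Cdkn1b, the gene of p27, fell by 0.86 (SE 0.13) and 1.42 (SE 0.10) in these comparisons. Bad, a promoter of apoptosis, fell by 1.02 in mESC-ser (SE 0.20) and rose by 1.28 in EpiLC against mESC-ser (SE 0.16). Eif4ebp1, the gene of the translation inhibitor 4E-BP1, rose in EpiLC by 1.33 against mESC-2i (SE 0.10) and by 1.91 against mESC-ser (SE 0.078), and Akt1s1 rose by 0.84 in the latter (SE 0.089). Cdkn1a, Bad and Akt1s1 overlap other genes. PIM kinases act on these proteins by phosphorylation, which RNA does not measure.

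Likeness of pattern was measured as Pearson's r of log2 CPM over the 9 libraries, among 9400 genes tested in all comparisons with a mean of at least 100 counts. It is mostly set by the differences between the 3 groups, so it is a description. The nearest gene to Socs3 was Pim1 (r = 0.99883), and Socs3 was also among the 2 nearest to Stat3 (0.99856) and to Pim1 (0.99883). The axon guidance receptor gene Robo1 was the nearest to both Pim1 (0.99883) and Il6st (0.99831). For Lifr the nearest genes were Trps1 (0.99952) and Arid5b (0.99856), which share its peak in mESC-ser, and for Gbx2 Ddb1 (0.99751) and Cpne1 (0.99741). Jak1 was nearest to Wdr82 (0.99587), Jak2 to Dock1 (0.99883) and Pim3 to Kdm1a (0.9966). The nearest to Pim2 were Lsr (0.99883), at 22.6, 55.7 and 171 CPM in mESC-2i, mESC-ser and EpiLC, and Ppp5c (0.99865). Trps1, Ddb1, Cpne1 and Lsr overlap other genes.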

How the data were processed

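RNA-seq counts of E14 cells were analysed in 9 libraries, 3 per group. Per the labels, libraries were made with the TruSeq RNA Library Prep Kit v2 from poly-A RNA and sequenced as 50 bp single-end reads. The authors trimmed reads (Trim Galore 0.6.6), aligned them to mm10 (HISAT2 2.2.1), counted them per gene (featureCounts of Subread 2.0.1) and deposited raw counts, whole numbers without normalization. The submitters' processing notes also name FastQC 0.11.0. How strand and multiply aligned reads were handled and which annotation release was used are not given in the sources used here. Near-identical copies and overlapping genes are therefore uncertain. The serum columns carry an abbreviation (SL), which was matched to the serum and LIF titles.

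Symbols, positions and exonic lengths came from GENCODE M21 (GRCm38, the assembly of mm10), which matched 36429 of 38293 identifiers. The others held 0.596% to 0.827% of the counts of a library. The 6 libraries of 2 groups at a time were fitted with edgeR 4.0.16 (R 4.3.3, limma 3.58.1): filterByExpr, TMM scaling and the quasi-likelihood F-test, with Benjamini-Hochberg adjustment over all tested genes. SE values come from the F statistic. Calls needed an adjusted p below 0.05 and a log2 fold change beyond 0.5 in size. Levels are CPM scaled by TMM over the 9 libraries, and RPKM divides them by exonic length. Library totals were 7187576 to 16829549 counts. A group with 3 counts or fewer in each library was taken as at the floor, and a fold against it is a lower bound that covers counting error only. Ratios used counts plus 0.5 and an exact two-sided permutation test (Python 3.11.15). The fits were tested on simulated counts.

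The named genes are all 10 members, up to 3 called genes with the largest change per list and comparison, further list genes needed to account for a list, and 2 nearest genes per member. Of the genes this rule names, 2 are not reported here by name and remain in the counts of their lists. Members and lists were chosen with earlier results of these data known. Replicate numbers were checked for pairing by correlating the deviations of same-numbered libraries. Between mESC-ser and mESC-2i these were 0.129 to 0.345, all over 0.1, where differently numbered libraries gave -0.278 to 0.146. For EpiLC the same-numbered values were 0.0195 to 0.112 with mESC-2i and 0.0165 to 0.0335 with mESC-ser. The main fits had no replicate term in any comparison, and a replicate block was tried only as an alternative. No replicates agreed within sampling noise (chi-square per degree of freedom 1.61 to 28.3). As alternatives, scaling by RLE, upper quartile or total counts was tried, as were other filters, DESeq2 1.42.0, 1 fit of all libraries, a replicate block, offsets from splines (5 degrees of freedom) of length and GC content, other thresholds and leaving out each replicate.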

Additional observations from a re-analysis of the deposited data

How the results depend on the processing

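The 1 higher and 9 lower members in both comparisons with EpiLC were called under every alternative tried, 150 single values in each comparison. Of 150 values in mESC-ser against mESC-2i 137 kept their call and direction. The count of 3 members there became 6 with the adjusted p alone and 1 at an absolute log2 fold change over 1, and was 3 to 4 when a replicate was left out. That stricter fold took the called pathway genes from 32 to 20 and all called genes from 8843 to 4935, and the pathway genes in EpiLC against mESC-ser from 41 to 26.

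Il6st, which was not called, turned from -0.017 to 0.012 with RLE scaling and with DESeq2, 0.016 without a filter, 0.040 with at least 10 counts in every library, 0.0097 in 1 fit of 9 libraries, and lay between -0.074 and 0.073 when a replicate was left out, above 0 without replicate 3 of mESC-2i (0.047) or replicate 1 (0.073) or 2 (0.029) of mESC-ser. Offsets for length and GC content turned Socs3 to 0.022 and Pim1 to 0.11, neither called, took Lifr to 0.20, Pim3 to 0.66 and Il6st to -0.44, its largest move (adjusted p = 0.000657, short of the fold threshold), and so kept 3 calls with Pim3 in place of Lifr. The range of the Socs3 to Stat3 ratio was 1.24 to 1.37 when 1 library was left out, and its adjusted p rose to 0.0857. Its range of 1.31 also missed the threshold under a replicate block (adjusted p = 0.111), in which libraries were permuted among those of the same number, an alternative chosen after seeing the data. The other 4 ratios stayed past the threshold when a library was left out and under the block (adjusted p = 0.0347, with 0.0278 the smallest unadjusted p that its 216 arrangements can give).

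With a replicate block the members called were 3, 10 and 10 and the pathway genes 32, 32 and 41, as without it, and no member's call changed. Total counts in place of TMM took the share of higher genes among all calls from 45.9% to 33.7% in EpiLC against mESC-2i, with a median of -0.45, and from 48.4% to 37.4% against mESC-ser, with a median of -0.41. The offsets took these shares to 57.5% and 56.3%, with medians of 0.20 and 0.15. The cause of these changes was not tested. Depth limits the precision of Jak2 and Socs3 in EpiLC, at 15 to 33 counts per library.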
